A study of Mus musculus with 18 samples.

Results

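The genes described here encode the proteins of the cytosolic ribosome, measured in mouse hearts that carried extra phospholipase Cβ1 (PLCβ1). They were taken by symbol from the gene count table: symbols that start with Rpl or Rps and a number, plus Rplp0, Rplp1, Rplp2 and Rpsa, without the ribosomal S6 kinases and without pseudogene symbols. Of 86 such rows among 23457 genes, 69 had a mean of at least 10 counts over the 18 hearts and are the members, 40 of the large and 29 of the small subunit. The choice used the level over all hearts and no difference between groups. All 69 also passed the filter on low counts that was applied to every gene. The symbol rule also takes in Rps19bp1, which encodes a nucleolar protein that binds RPS19 and is not itself part of the ribosome, and Rpl7l1, whose product acts in building the large subunit.

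Male C57BL/6 mice, 8 weeks old, were injected intravenously with recombinant adeno-associated virus serotype 6 (rAAV6), which reaches heart muscle cells, and hearts were taken 9 weeks later. There were 3 groups of 6 mice: rAAV6-PLCβ1b, the splice variant under study; rAAV6-PLCβ1a, the other splice variant of the gene, which differs at its C-terminal end; and rAAV6-blank, which carries a promoter and no protein product. Both PLC proteins carried a FLAG tag, every heart, controls included, carried rAAV6, and no heart without virus is in the series. The labels name both ventricles as the tissue and the study's methods name the left ventricle. Each heart gave 1 library of total RNA depleted of ribosomal RNA, read in pairs of 76 bases. In bulk tissue, fewer cells of a type and less RNA per cell cannot be told apart.

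The cytosolic ribosome joins a small subunit, which reads the mRNA, to a large subunit, which forms the peptide bonds, and each holds its own set of proteins on an RNA core. The protein genes are expressed in nearly all cells, in roughly balanced amounts, and many of their mRNAs begin with a C followed by a run of pyrimidines, the 5′ terminal oligopyrimidine (TOP) tract, through which mTOR signalling and LARP1 control their translation. In the mouse genome most of these genes have processed pseudogenes, copies of the mRNA without introns. A few have a paralog used in particular tissues, and Rpl3l, the paralog of Rpl3 in striated muscle, is the best known in the heart.

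The libraries held 13246339 to 24155465 counts, of which 67.1% to 71.9% fell on genes of the mitochondrial genome. Plcb1 itself stood at 5.43 to 6.88 CPM (normalised counts per 1000000 counts of a library) in the blank hearts, at 17.8 to 29.2 CPM in the PLCβ1a hearts and at 23.1 to 69.9 CPM in the PLCβ1b hearts, so each library matched its label as to extra Plcb1. The count does not separate the splice variants. All 8 cardiomyocyte markers listed were present. The fibroblast markers summed to 392 to 448 CPM in blank, 410 to 465 CPM in PLCβ1a and 421 to 467 CPM in PLCβ1b hearts, with 6 of 6 markers tested and 0 at zero. Of the erythroid markers, 4 of the 5 rows present were at 0 in every heart.

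The start of the mRNA is the feature for which this gene family is known, and so the start sites are shown first. RefSeq (GRCm38.p6) start sequences were at hand for 51 of the 69 members. A C at the annotated start followed by at least 4 pyrimidines (C or T) was present in 9 of these 51 (17.6%) and in 2.48% of the 9068 tested genes with a sequence. The 9 are shown with 15 bases before and 15 from the annotated start, the run of pyrimidines in capitals.

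Rpl14: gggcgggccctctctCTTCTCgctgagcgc

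Rpl15: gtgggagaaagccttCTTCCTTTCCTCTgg

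Rpl38: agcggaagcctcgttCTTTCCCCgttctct

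Rplp2: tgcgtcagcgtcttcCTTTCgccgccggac

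Rps6: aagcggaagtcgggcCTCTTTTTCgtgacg

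Rps10: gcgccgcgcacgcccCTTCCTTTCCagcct

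Rps15a: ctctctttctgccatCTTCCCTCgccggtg

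Rps18: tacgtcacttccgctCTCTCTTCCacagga

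Rps21: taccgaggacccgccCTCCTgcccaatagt

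Rpl3l, the muscle paralog, is also given and, like most members with a sequence, had no such run at its annotated start.

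Rpl3l: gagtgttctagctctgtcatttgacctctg

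These windows lie at chr9:120571502-120571531 (plus strand) for Rpl14, chr14:18270972-18271001 (minus) for Rpl15, chr11:114668565-114668594 (plus) for Rpl38, chr7:141447636-141447665 (plus) for Rplp2, and chr4:86857353-86857382 (minus) for Rps6. The others are chr17:27635230-27635259 (minus) for Rps10, chr7:118116133-118116162 (minus) for Rps15a, chr17:33955651-33955680 (minus) for Rps18, chr2:180257364-180257393 (plus) for Rps21 and chr17:24727811-24727840 (plus) for Rpl3l. With the search widened to a C and at least 6 pyrimidines that begin within 10 bases of the annotated start, 22 of 51 members (43.1%) held the run against 12.2% of tested genes. In the 300 bases around the start, CCGGAA on either strand occurred in 51% of the members and in 28.8% of tested genes, and TATAAA in 7.84% and 7.23%. The annotated start is 1 position per gene, whereas transcription may begin at several, and a matching run is a description of the sequence alone. The wording of the searches was settled with these sequences in view.

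Levels were compared between genes per length, as CPM per kilobase of exon (RPKM), in the blank hearts. The member with the highest level was Rpl8, whose protein lies close to the peptidyl transferase centre, at 85.1 ± 3.22 RPKM (SD, n = 6). Rplp1, an acidic protein of the stalk that recruits elongation factors, followed at 84.5 ± 5.26 RPKM, and these do not differ beyond their spread. Next came Rps15 at 78.3 ± 3.39 RPKM and Rpl4 at 77.3 ± 3.18 RPKM, which likewise overlapped, and then Rps9 at 65.0 ± 4.15 RPKM. The lowest members were Rpl37 at 1.19 ± 0.269 RPKM, Rpl31 at 0.989 ± 0.296 RPKM, Rps27a (ubiquitin fused to a small subunit protein) at 0.981 ± 0.0973 RPKM, Rpl17 at 0.880 ± 0.394 RPKM and Rpl10a at 0.774 ± 0.321 RPKM, each within the spread of its neighbour. Members whose proteins occupy the ribosome together thus covered a wide range of count-based levels.

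The deposited FPKM values, which the Cufflinks program estimates and which can assign reads that match several places, gave another order. Rpl41 stood first at 166 ± 15.2 FPKM, against 59.9 ± 4.58 RPKM and 7th place by counts. Rpl10a, last by counts, had 18.3 ± 2.84 FPKM. Rps6, the S6 kinase substrate, had 27.8 ± 1.38 FPKM and 1.63 ± 0.331 RPKM. Of the 10 highest members by RPKM, 8 were also among the 10 highest by FPKM. Over all tested genes the median ratio of FPKM to RPKM was 1.19, and over the members it was 2.73.

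That ratio moved with the sequence that a gene shares with others. Each transcript was cut into all its windows of 76 bases, the read length, and a window was called shared if it occurred unchanged in another annotated gene at another place. The median ratio was 1.22 for the 18 members with under 20% of windows shared, 2.75 for the 28 members with 20 to under 50%, and 4.04 for the 23 members with 50% or more. Across the 69 members the rank correlation of shared windows with the ratio was 0.714, and with the mean count it was −0.577. The points share the same libraries, and transcript length enters both measures. Rpl3, with 83.2% of windows shared and 7 near-identical pseudogenes, is such a gene, and members such as Rpl3l, Rps3 and Rps19bp1 had 0% shared. The 17 rows under the count minimum, which were left out by rule, included Rpl26 and Rpl35. Rpl26 had 0 counts in all hearts, 56.5% of windows shared and also a low FPKM, with a mean of 0.141 and a highest of 2.52. It has an exon overlap with Gm15772 on the same strand, where union-mode counting leaves reads out as ambiguous. The cause of its low values was not tested. Rpl35 had a mean of 9.22 counts and 54.5 FPKM. The members were also short, with a median exon length of 795 bases against 2985 bases over all tested genes. Counts of the members with high shares are uncertain as to level, and the parts of sharing and of length were not tested.

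**Figure D1:**
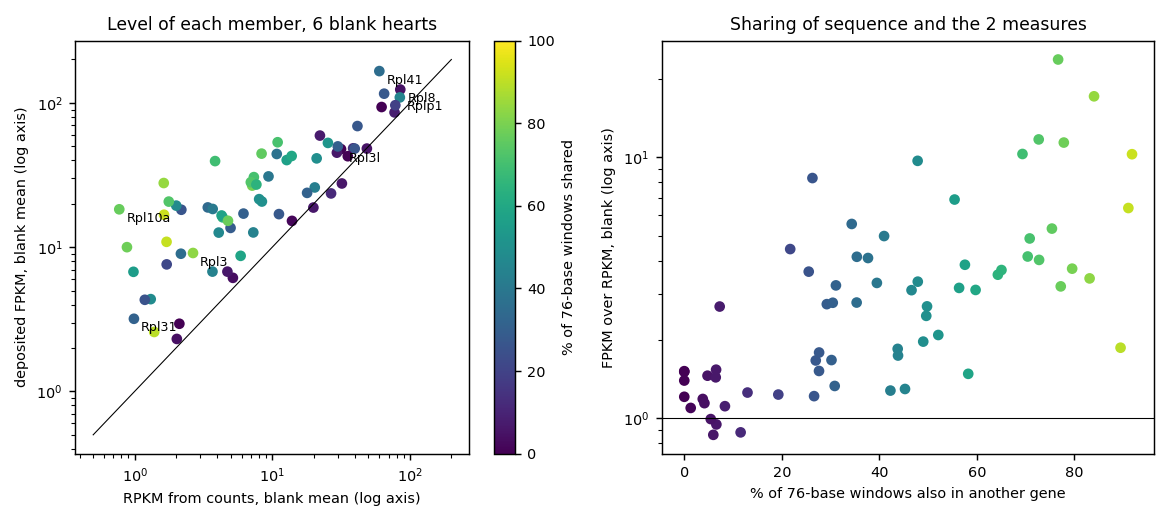
Left, the level of each of the 69 members in 6 blank hearts as count-based RPKM (x axis) and as deposited FPKM (y axis), both log axes, with the line of equality and coloured by the percent of 76-base windows that also occur in another gene. Right, the ratio of FPKM to RPKM (log axis) against that percent. Members with under 20% of windows shared have a median ratio of 1.22, though some lie higher, such as Rpl39 at 2.68 with 7.26% shared. Members with many shared windows lie above 1, up to the low-count genes such as Rpl10a.

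The first comparison asks whether the ribosomal protein transcripts differed in hearts with PLCβ1b. By edgeR's quasi-likelihood test with Benjamini-Hochberg adjustment over all 12281 genes, 0 of the 69 members passed a false discovery rate (FDR) of 0.1, a level that 0.0977% of all genes passed. The lowest FDR among the members was 0.514. DESeq2 and limma on log2 FPKM also called 0 members. At an unadjusted p under 0.05 there were 11 members (15.9%), all 11 with a lower estimate, beside 7.41% of all genes in either direction and 3.47% of all genes lower. Estimates were below blank for 53 of 69 members (76.8%, against 50.4% of all genes), and the median log2 difference was −0.09, against 0.00 over all genes. The count of 11 rested partly on single hearts. Leaving out blank heart 36 gave 4, leaving out heart 8 of the PLCβ1b group gave 5 and leaving out its heart 17 gave 6, and the most with any 1 heart left out was 16.

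Rps3a1, a small subunit protein at chr3:86137940-86142668 (mm10), had the lowest p in this comparison. It stood at 10.7, 13.2 and 14.3 CPM (lowest, median and highest of 6 hearts) in blank and at 10.5, 11.5 and 12.3 CPM in PLCβ1b. The groups overlapped, 2 of the PLCβ1b hearts being under the lowest blank heart. The log2 difference was −0.19 (SE 0.07), with an FDR of 0.514 by edgeR's quasi-likelihood test. With limma on log2(FPKM + 0.1) the difference was −0.11. For Rps3a1, 6 near-identical pseudogenes were found and 59.8% of windows are shared.

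Rpl7l1 stood at 11.95, 13.53 and 14.48 CPM in blank and at 11.09, 11.99 and 12.91 CPM in PLCβ1b, a log2 difference of −0.16 (SE 0.07) with an edgeR FDR of 0.592. Rps24, whose human counterpart is mutated in some cases of Diamond-Blackfan anaemia, stood at 23.4, 26.4 and 27.8 CPM in blank and at 22.2, 24.1 and 25.2 CPM in PLCβ1b, and its log2 difference was −0.13 (SE 0.05). Rpl5, which with Rpl11 and 5S ribosomal RNA forms the particle that can bind MDM2, stood at 3.69, 3.89 and 5.12 CPM in blank and at 2.70, 3.58 and 3.70 CPM in PLCβ1b. For Rpl5, 5 of the 6 PLCβ1b hearts lay below every blank heart, more than for any other member in this comparison, and the log2 difference was −0.26 (SE 0.11, edgeR FDR 0.599). On the other side, Rpl35a had the highest estimate, 0.28 on the log2 scale (SE 0.15), from 1.93, 2.16 and 2.51 CPM in blank and 2.01, 2.97 and 3.04 CPM in PLCβ1b. With limma on log2(FPKM + 0.1) its difference was only 0.03. For Rpl35a, 14 near-identical pseudogenes were found and 41.0% of windows are shared. Rpl35a was followed in p among the higher estimates by Rpl7, at 17.7, 19.4 and 22.0 CPM in blank and 19.3, 19.9 and 22.9 CPM in PLCβ1b. In all of these the groups overlapped, and 0 of the 69 members had groups apart in this comparison, as did 0.48% of all genes.

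**Figure D2:**
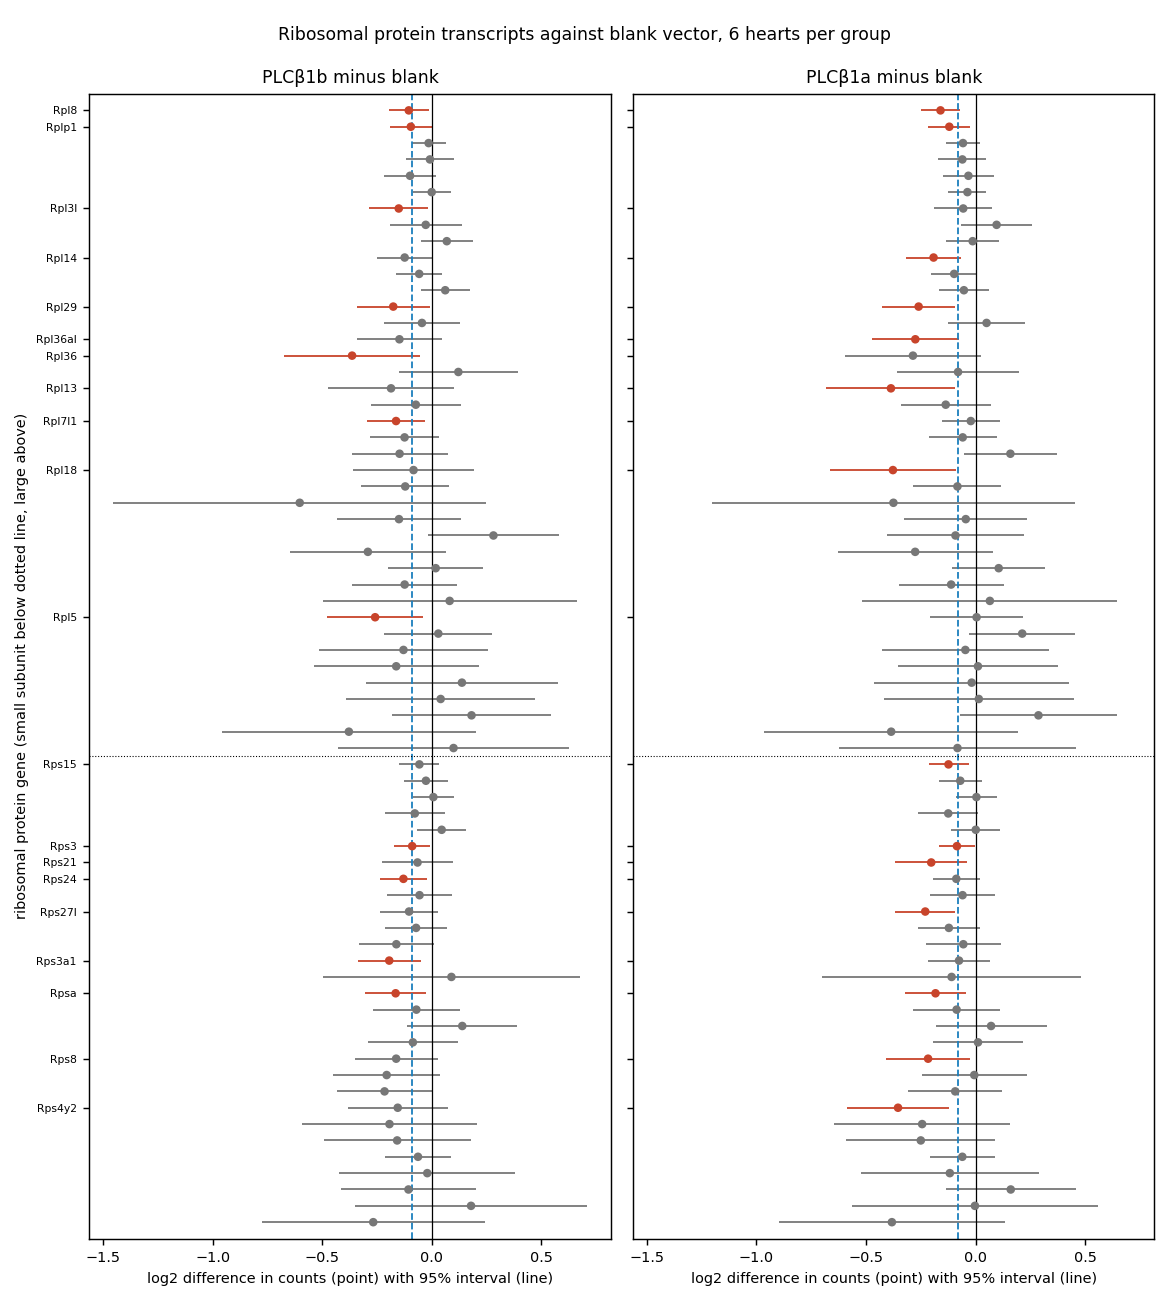
The log2 difference in normalised counts of each member, PLCβ1b minus blank (left) and PLCβ1a minus blank (right). The 95% intervals were derived from edgeR's F statistic (6 hearts per group). Members with an unadjusted p under 0.05 in either panel are labelled. Genes are ordered by level within the large subunit (above the dotted line) and the small subunit (below), red marks an unadjusted p under 0.05, and the dashed line is the median of the members, −0.09 at left and −0.08 at right. Both panels use the same 6 blank hearts, and all red points lie left of 0.

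PLCβ1a, against the same blank hearts, again gave 0 of 69 members at an FDR below 0.1 by edgeR's quasi-likelihood test (0.138% of all genes passed), and 0 by DESeq2 and by limma. The lowest FDR was 0.255. There were 14 members (20.3%) at an unadjusted p under 0.05, each with a lower estimate, beside 8.58% of all genes in either direction and 4.16% lower. Estimates were lower for 54 of 69 members (78.3%, against 50.6% of all genes), with a median log2 difference of −0.08. Leaving out 1 heart at a time gave 11 to 20 members at that p.

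Rpl8, at chr15:76904071-76906318, had the lowest p among the members. It stood at 70.6, 73.2 and 78.2 CPM in blank and at 60.7, 66.6 and 69.7 CPM in PLCβ1a. All 6 PLCβ1a hearts lay below all 6 blank hearts. Rpl8 was the single member whose groups were apart, as were 0.594% of all genes, and the log2 difference was −0.16 (SE 0.04, edgeR FDR 0.255). In PLCβ1b hearts Rpl8 stood at 63.5, 67.9 and 74.7 CPM, where 4 hearts of 6 were under the lowest blank heart, and the log2 difference was −0.11 (SE 0.04). Only 4.77% of its windows are shared.

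Rps27l, a paralog of Rps27 that is a p53 target, stood at 11.1, 12.7 and 13.1 CPM in blank and at 10.1, 10.6 and 11.6 CPM in PLCβ1a, with 5 of 6 PLCβ1a hearts below every blank heart. Its log2 difference was −0.23 (SE 0.07, edgeR FDR 0.256). Rpl29, a large subunit protein also known as a heparin-binding protein, stood at 8.64, 8.86 and 9.63 CPM in blank and at 5.75, 7.58 and 8.69 CPM in PLCβ1a, a log2 difference of −0.26 (SE 0.08). For Rpl29, 26 near-identical pseudogenes were found and 56.4% of windows are shared. Among the higher estimates, Rpl21 had a log2 difference of 0.21 (SE 0.12), Rpl31 of 0.29 (SE 0.18) and Rpl7a of 0.16, none at an unadjusted p under 0.05. With limma on log2(FPKM + 0.1) the differences were smaller for Rpl21, at 0.02, and for Rpl31, at 0.08. Rpl31 stood at 0.764, 1.37 and 1.64 CPM in blank and at 1.27, 1.54 and 1.73 CPM in PLCβ1a, which overlapped.

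**Figure D3:**
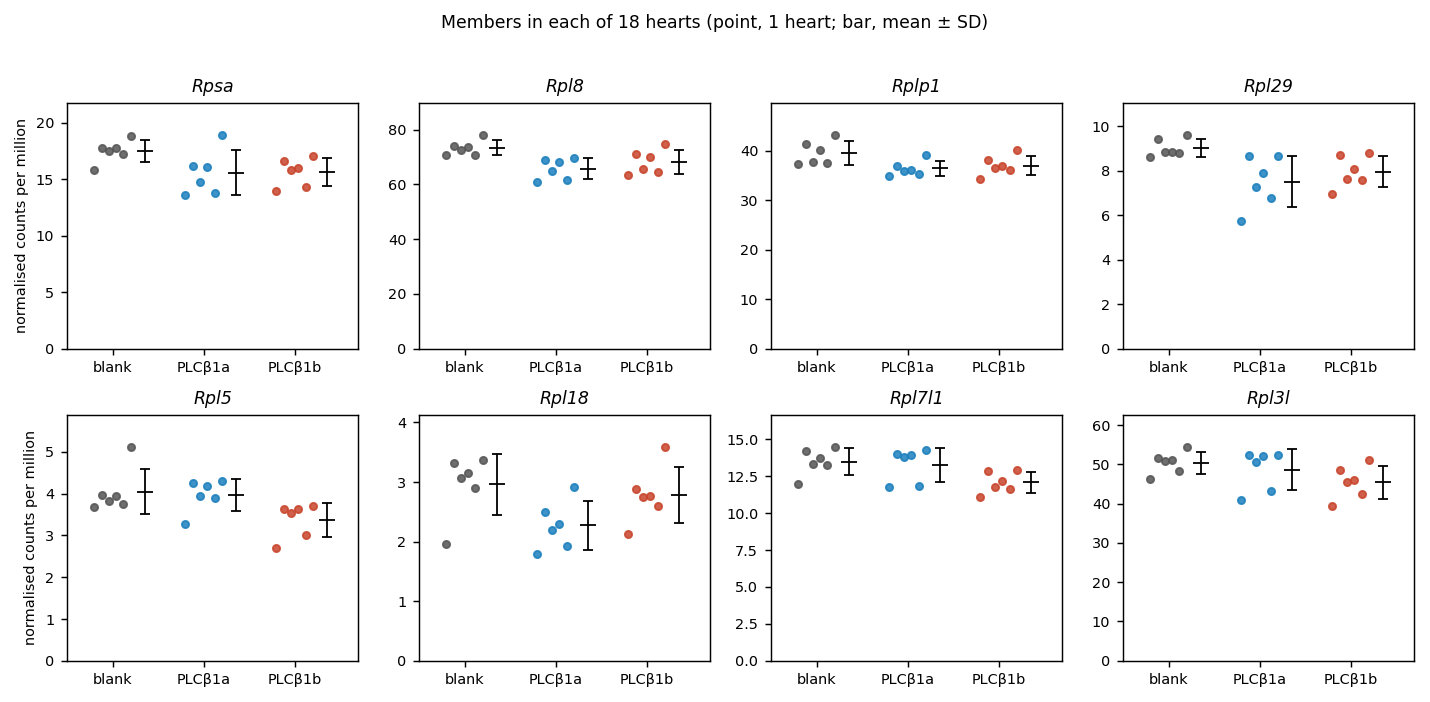
Normalised CPM of 8 members in each of 18 hearts (points), with the mean ± SD (bars) and axes from 0. Of these 8, the blank and PLCβ1a points of Rpl8 do not overlap, and in every other pair of groups shown the points overlap.

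Between the PLC variants, PLCβ1b against PLCβ1a, edgeR's quasi-likelihood test called 0 of 69 members and 0 of all 12281 genes (0%) at an FDR below 0.1, and DESeq2 and limma also called 0 members. At an unadjusted p under 0.05 there were 6 members (8.7%, against 4.42% of all genes), 3 lower and 3 higher in PLCβ1b, all of the large subunit. The 6 became 3 without PLCβ1a heart 7 or without PLCβ1a heart 9. The median log2 difference was 0.02. Rpl7a, Rpl5 and Rpl7l1 were the lower ones, with log2 differences of −0.31, −0.26 and −0.14. Rpl35a, Rpl18 and Rpl22 were the higher ones, at 0.37, 0.29 and 0.11. Rpl7a stood at 4.19, 4.44 and 5.99 CPM in PLCβ1a and at 3.10, 3.63 and 4.40 CPM in PLCβ1b, with 5 of the 6 PLCβ1b hearts below every PLCβ1a heart. With 37 near-identical pseudogenes found, Rpl7a had more than any other member. Rpl18 stood at 1.96, 3.10 and 3.36 CPM in blank, at 1.79, 2.25 and 2.92 CPM in PLCβ1a and at 2.13, 2.75 and 3.59 CPM in PLCβ1b. On the log2 FPKM scale 0 members reached an unadjusted p under 0.05 in this comparison by limma. The differences there were −0.01 for Rpl18 and 0.07 for Rpl35a. A test of any difference among the 3 groups gave 0 members at an FDR below 0.1 (0.13% of all genes) and 16 (23.2%) at an unadjusted p under 0.05, against 7.35% of all genes, with a lowest FDR of 0.389 for Rpl8 (edgeR's quasi-likelihood test). Without blank heart 36 these 16 became 8.

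The summed level was taken as the members' share of the counts on nuclear genes. It ran from 0.313% to 0.347% in blank (median 0.335%), from 0.307% to 0.334% in PLCβ1a (median 0.313%) and from 0.308% to 0.334% in PLCβ1b (median 0.321%). The means were 0.334 ± 0.0119%, 0.315 ± 0.00981% and 0.322 ± 0.00891% (SD, n = 6). The ranges overlapped: blank heart 30 lay among the low PLC hearts, and PLCβ1a heart 21 and PLCβ1b heart 6 lay among the blank hearts. As a share of summed nuclear FPKM the order was the other way, 1.14 ± 0.0955% in blank, 1.18 ± 0.129% in PLCβ1a and 1.16 ± 0.0591% in PLCβ1b, with the ranges overlapping. The summed share thus had no direction that held on both scales. This holds for the share alone. The members' median deviation from their own means in log2 FPKM averaged 0.057 ± 0.102 in blank, −0.022 ± 0.0716 in PLCβ1a and −0.027 ± 0.0699 in PLCβ1b, again with ranges overlapping. The large to small subunit ratio of counts was 1.35 ± 0.0533 in blank, 1.37 ± 0.0509 in PLCβ1a and 1.36 ± 0.0358 in PLCβ1b.

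Single hearts stood out across the members. As deviations of each member from its own mean over 18 hearts on the log2 CPM scale, blank heart 36 had a median of 0.15 with 56 of 69 members above their mean. Blank hearts 32 and 34 had medians of 0.12 and 0.10, and blank heart 30, the lowest of its group, had −0.04 with 26 members above. The PLCβ1a hearts ran from −0.10 in heart 14, with 23 above, and −0.08 in heart 13, with 21 above, up to 0.07 in heart 21, with 52 above. The PLCβ1b hearts ran from −0.08 in heart 8, with 15 above, up to 0.04 in heart 6, with 46 above. Over all tested genes the same median lay between 0.00 and 0.01 in every heart, and 50.2% to 52.4% of genes were above their mean. The scaling between libraries largely fixes these all-gene values in advance, so they are not an independent yardstick. In the hearts named, more of the members than of all genes lay on 1 side of their own mean. Among the marker lists of other cell types, 0 genes passed the FDR of 0.1 by edgeR in either comparison with blank. The fibroblast markers had a median log2 difference of 0.12 in PLCβ1b, with 6 of 6 estimates higher, and of 0.06 in PLCβ1a, with 5 of 6 higher. In each comparison 2 of them (33.3%) had an unadjusted p under 0.05 by edgeR, both higher. The shares of all genes in either direction were 7.41% and 8.58%. The 4 tested atrial markers had a median log2 difference of −0.36 in PLCβ1b, with 4 of 4 estimates lower, and of 0.02 in PLCβ1a. The 5 atrial markers summed to 36.7 to 53.5 CPM in blank, 24.2 to 61.0 CPM in PLCβ1a and 31.6 to 48.9 CPM in PLCβ1b. The 5 tested leukocyte markers had 0.07 in PLCβ1b and 0.12 in PLCβ1a. The 1 erythroid marker tested had 0.22 in PLCβ1b and 0.63 in PLCβ1a, the latter at an unadjusted p under 0.05, and the 1 adipocyte marker tested had −0.22 and 0.97. For the cardiomyocyte markers the medians were −0.03 and 0.00, for the endothelial markers 0.04 and 0.02, and for those of smooth muscle and pericytes 0.01 and 0.01. The part of any of these in the members' values was not tested.

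**Figure D4:**
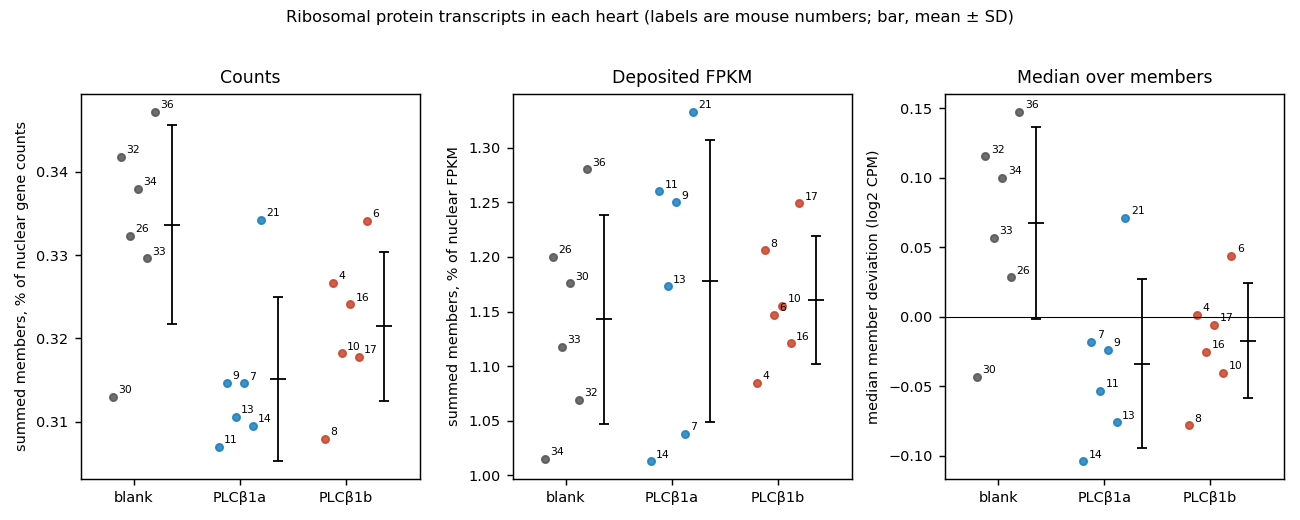
Each point is 1 heart, numbered by mouse, with the mean ± SD of 6 hearts (bars). Left, the members' summed share of nuclear gene counts; middle, the same share of deposited nuclear FPKM; right, the median over members of the deviation from each member's mean in log2 CPM. Blank hearts 32, 34 and 36 are the highest in the left and right panels, and this order is not seen in the middle panel.

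Among members grouped by role, the stalk gave small differences. Rplp0, the base of the stalk, stood at 52.4, 56.7 and 61.4 CPM in blank, at 52.8, 54.7 and 59.3 CPM in PLCβ1a and at 53.6, 56.8 and 58.1 CPM in PLCβ1b. Rplp1 stood at 37.3, 39.0 and 43.3 CPM, 35.0, 36.1 and 39.2 CPM, and 34.3, 36.7 and 40.1 CPM in the same order of groups, and its log2 differences were −0.12 (SE 0.05) for PLCβ1a and −0.10 (SE 0.05) for PLCβ1b. Its partner Rplp2 stood at 2.60, 3.22 and 4.11 CPM, 2.64, 2.91 and 3.68 CPM, and 2.45, 3.62 and 4.58 CPM. All 3 groups overlapped for each stalk gene.

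Rpsa, which doubles as a laminin receptor at the cell surface, stood at 15.8, 17.6 and 18.8 CPM in blank, at 13.6, 15.4 and 18.9 CPM in PLCβ1a and at 13.99, 15.89 and 17.02 CPM in PLCβ1b. The groups overlapped, with log2 differences from blank of −0.18 (SE 0.07) and −0.17 (SE 0.07). Rps6 stood at 1.59, 2.34 and 2.88 CPM, 1.98, 2.66 and 2.88 CPM, and 1.532, 2.102 and 2.717 CPM, with 84.1% of windows shared. Rps19bp1 stood at 1.12, 1.88 and 1.92 CPM in blank, 1.21, 1.40 and 1.87 CPM in PLCβ1a and 1.10, 1.60 and 2.04 CPM in PLCβ1b. The biological coefficient of variation, a measure of spread between hearts, reached 0.485 in the low-count Rpl38, whose CPM ran from 0.306 to 2.20 in blank. A wide spread was not confined to low counts. Among the 34 members with a mean count of 100 or more the coefficient reached 0.331. Rps2, with a mean count of 209, ran from 5.97 to 14.6 CPM in blank. The median coefficient was 0.0762 over the members and 0.0710 over all genes, and 0.0638 and 0.0636 where the mean count was 100 or more.

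The paralogs were compared with their parent genes as log2 ratios of CPM within each heart, which cancel the library size. Rpl3l (chr17:24727829-24736149) exceeded Rpl3 (chr15:80077781-80083406) in every heart, by 3.61, 3.73 and 4.09 log2 units (lowest, median and highest) in blank, 3.52, 3.80 and 4.03 in PLCβ1a and 3.44, 3.61 and 4.22 in PLCβ1b. In blank hearts Rpl3l stood at 31.6 ± 1.76 RPKM and 47.8 ± 4.44 FPKM, and Rpl3 at 2.66 ± 0.367 RPKM and 9.11 ± 1.13 FPKM. The ratio is thus smaller on the FPKM scale, and 83.2% of the windows of Rpl3 are shared, as given above. Rpl3l itself stood at 46.4, 50.9 and 54.5 CPM in blank and at 39.3, 45.8 and 51.1 CPM in PLCβ1b, where 4 hearts of 6 were under the lowest blank heart, and the log2 difference was −0.15 (SE 0.06, edgeR FDR 0.605). In PLCβ1a it stood at 40.8, 51.4 and 52.5 CPM.

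Of 12 ratio tests (4 pairs in 3 comparisons, two-sided exact permutation over all arrangements of 6 against 6 hearts, smallest possible p 0.0022), 0 had an adjusted p under 0.05. The lowest p was 0.0411 (exact permutation, adjusted p 0.221) for Rps4y2 over Rps4x, a difference of −0.20 log2 units in PLCβ1a. Rps4y2 is listed by RefSeq as a synonym of Rps4l, and Rps4x is its parent gene on the X chromosome. Rpl7l1 over Rpl7 differed by −0.22 between PLCβ1b and blank (exact permutation p 0.0563, adjusted 0.221). Rpl22l1 over Rpl22 differed by −0.29 between PLCβ1b and blank (exact permutation p 0.0736, adjusted 0.221). On the FPKM scale the latter was −0.56 with an adjusted exact permutation p of 0.0260, the only 1 of the 12 to pass on that scale. Rpl22l1 stood at 1.33, 1.80 and 2.31 CPM in blank and at 1.27, 1.47 and 1.59 CPM in PLCβ1b, and its mean count over all hearts was 29.1.

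**Figure D5:**
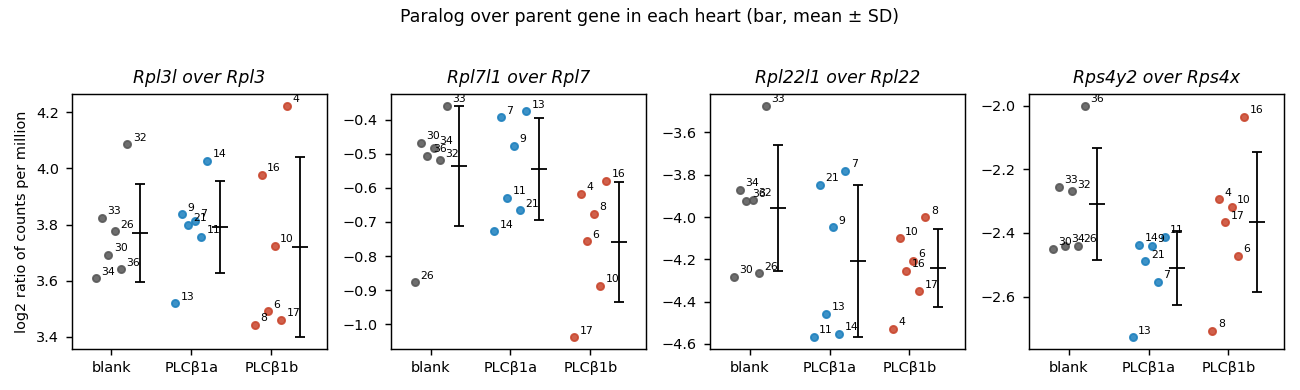
The log2 ratio of CPM of each paralog to its parent gene in each heart (points numbered by mouse), with the mean ± SD of 6 hearts (bars). The groups overlap in all 4 panels.

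Related gene sets were read beside the members. The mitochondrial ribosomal proteins, which build the separate ribosome of the mitochondrion, had 75 tested genes with median log2 differences of −0.06 in PLCβ1b and −0.09 in PLCβ1a, and estimates were lower for 82.7% and 84% of them. In PLCβ1b 0 passed the FDR of 0.1 by edgeR, beside 0.0977% of all genes. There 7 (9.33%, all lower) had an unadjusted p under 0.05, beside 7.41% of all genes. In PLCβ1a 16 (21.3%, all lower) had such a p, a share close to the 20.3% of the cytosolic members, beside 8.58% of all genes. The FDR of 0.1 was passed by 2, beside 0.138% of all genes. These were Mrpl18 and Mrpl34, both lower with an edgeR FDR of 0.0542. Mrpl18 had a mean of 35.0 ± 0.895 CPM in blank and 29.8 ± 1.77 CPM in PLCβ1a, a log2 difference of −0.23, and Mrpl34 had 11.99 ± 0.325 CPM and 9.57 ± 0.654 CPM, a difference of −0.32. The 14 translation factors whose mRNAs carry TOP tracts or are grouped with them had medians of 0.02 in PLCβ1b and −0.02 in PLCβ1a. In each, 0 were called and 1 (7.14%) had an unadjusted p under 0.05 (Eef1g, lower in both, named after its values were seen).

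Genes that make ribosomes (39 tested, for RNA polymerase I, nucleolar assembly and export) had medians of −0.02 and −0.01 in PLCβ1b and PLCβ1a. In each, 0 were called by edgeR and 4 (10.3%) had an unadjusted p under 0.05, beside 7.41% and 8.58% of all genes. The 17 genes of mTOR, S6 kinase and MYC control had medians of 0.01 and 0.02, with 0 called by edgeR. At an unadjusted p under 0.05 there were 3 (17.6%) in PLCβ1b and 1 (5.88%) in PLCβ1a. Larp1, named as the TOP regulator, stood at a mean of 31.6 CPM in blank, 32.1 CPM in PLCβ1a and 32.6 CPM in PLCβ1b, and Mtor at 38.8, 40.2 and 38.9 CPM. The 4 p53 targets and regulators had 0 called and 0 at that p in either comparison. Gnb2l1, the gene of the ribosome-bound scaffold RACK1, stood at 77.9 CPM in blank, 71.3 CPM in PLCβ1a and 72.3 CPM in PLCβ1b, with log2 differences of −0.13 and −0.11 (SE 0.05 each) and an edgeR FDR of 0.379 and 0.601.

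Other features of the members were read in the same way. The members with under 20% of windows shared had median log2 differences of −0.06 in both comparisons against blank, and those with 50% or more had −0.15 in PLCβ1b and −0.09 in PLCβ1a. The 9 members with the pyrimidine run had −0.11 and −0.08. The 21 members that host snoRNA genes in their introns, small RNAs that guide the modification of ribosomal RNA, had −0.06 and −0.08. By subunit, the medians were −0.10 (large) and −0.09 (small) in PLCβ1b and −0.06 and −0.09 in PLCβ1a.

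The median half-width of the 95% interval was 0.20 on the log2 scale in each comparison. Intervals lay within ±0.58 for 59 of 69 members in PLCβ1b against blank, for 55 in PLCβ1a against blank and for 59 between the variants. They lay within ±1 for 68 of 69 in each. The width differed between members, and for Rpl8 in PLCβ1a the interval ran from −0.25 to −0.07. A difference inside a member's own interval could not be told from its estimate at this depth and number of hearts.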

How the data were processed

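The authors aligned the reads to mm10 with TopHat (2.0.10 in the submitters' processing notes) and deposited HTSeq gene counts, whole numbers made by strand-specific counting in union mode without normalisation. The authors also deposited FPKM values from Cufflinks (2.1), fragments scaled to exon length and library size. Reads that match several places enter the FPKM estimate but not such counts. The members, lists and tests were chosen with earlier results of these data known.

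Counts were scaled by TMM, filtered with filterByExpr (minimum count 10) and fitted over all 18 hearts with edgeR 4.0.16 (quasi-likelihood, robust estimation), with Benjamini-Hochberg FDR below 0.1 over 12281 genes. The SE of a log2 difference was taken as its absolute value over the square root of edgeR's F statistic. The 95% intervals use that SE and the t distribution. CPM are TMM-scaled, and RPKM divide them by the exon length in the deposited annotation. DESeq2 1.42.0 and limma 3.58.1 on log2(FPKM + 0.1) served as alternatives, with a pseudocount of 1 as a further one. Ratios used a prior count of 2. Shared windows came from GENCODE M21 transcripts, and near-identical copies (95% identity over at least 50% of the transcript) from BLAST 2.17.0. Members were named by the 3 lowest p in each direction of each comparison, the 5 highest and 5 lowest levels, and the paralog and stalk lists, with Rpsa, Rps6 and Rps19bp1. Others, among them Rpl38, Rpl41, Rps2, Rps3, Rpl26, Rpl35, Mrpl18, Mrpl34, Mtor and Gnb2l1, were named after their values were seen. Some items that the rule takes in are not reported here. Each mouse is 1 library. Intervals are for the difference between groups, given the spread between hearts, with 13246339 to 24155465 counts in each heart.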

Additional observations from a re-analysis of the deposited data

Results flagged for a closer look

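Among 126 groups of 6 hearts tested for a value set apart from the other 5 (Dixon's test at the 95% level), 8 were found, and chance gives about 1 in 20. In blank heart 26, Rpl10 stood at 1.87 CPM, above the next heart at 1.31 CPM, and Rps19bp1 stood at 1.12 CPM, below the next at 1.83 CPM. In the same heart the log2 ratio of Rpl7l1 to Rpl7 was −0.88, below the next at −0.52. In blank heart 30, Rpl18 stood at 1.96 CPM, below the next at 2.90 CPM, and Rps9 stood at 40.0 CPM, below the next at 45.5 CPM. In blank heart 32, Rpl5 stood at 5.12 CPM, above the next at 3.97 CPM, and it is the highest of the blank values in the comparison of Rpl5 with PLCβ1b. In PLCβ1a heart 14, Rpl7a stood at 5.99 CPM, above the next at 4.69 CPM. The summed share of the members in nuclear counts was 0.334% in PLCβ1a heart 21, above the next PLCβ1a heart at 0.315%. The cause of these values was not tested.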

How the results depend on the processing

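No paired analysis was possible because the groups share no mouse numbers. The numbers ran from 26 to 36 in blank and lay between 4 and 21 in the PLC groups, whose numbers are intermixed. An effect that goes with this numbering cannot be told apart from a difference between a PLC group and blank. No setting called a member at an FDR below 0.1: not upper-quartile or RLE scaling, no filter, mitochondrial genes left out, only the 2 groups compared, DESeq2, limma on log2 FPKM, robust estimation off (added after seeing the data), an FDR below 0.05, or any 1 heart left out. Leaving out 1 heart gave 4 to 16 members at an unadjusted p under 0.05 in PLCβ1b against blank, 11 to 20 in PLCβ1a against blank, 3 to 8 between the variants and 8 to 21 among the 3 groups. The PLCβ1b count fell to 4 without blank mouse 36, 5 without PLCβ1b mouse 8 and 6 without PLCβ1b mouse 17, that between the variants to 3 without PLCβ1a mouse 7 or 9, and that among the 3 groups to 8 without blank mouse 36. The median log2 difference then had a lowest value of −0.11 and a highest of −0.07 in PLCβ1b, and −0.10 and −0.05 in PLCβ1a.

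Some directions also changed on the FPKM scale, but the members' median against blank stayed negative. With limma on log2(FPKM + 0.1), estimates were lower for 57 of 69 members in PLCβ1b, against 57.2% of all genes. In PLCβ1a they were lower for 56 of 69 members, against 58.1% of all genes. The member medians were −0.098 and −0.081, beside −0.019 and −0.021 over all genes. Between the variants, limma on log2(FPKM + 0.1) and on log2(FPKM + 1) gave 0 members at an unadjusted p under 0.05, and a median of −0.0028 and −0.0027. With these pseudocounts in turn, the log2 differences were −0.087 and −0.068 for Rpl31 and −0.0204 and −0.0199 for Rpl7 in PLCβ1b, −0.049 and −0.047 for Rps6 in PLCβ1a, and −0.0133 and −0.0130 for Rpl18 and −0.0033 and −0.0032 for Rpl36al between the variants. The summed share of nuclear FPKM was 0.024 above blank in PLCβ1b and 0.040 above in PLCβ1a (log2). Rpl3l over Rpl3 differed by −0.093 in PLCβ1a and by 0.0126 between the variants, and Rpl22l1 over Rpl22 by −0.56 in PLCβ1b. The cause was not tested.

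Leaving out 1 heart moved the Rpl3l over Rpl3 difference between −0.152 and 0.0123 in PLCβ1b and between −0.026 and 0.084 in PLCβ1a. It moved Rpl7l1 over Rpl7 between −0.078 and 0.027 in PLCβ1a, Rps4y2 over Rps4x between −0.123 and 0.0120 in PLCβ1b, and Rpl22l1 over Rpl22 between −0.103 and 0.054 between the variants. These differences are smaller than the spread between hearts and have no firm direction.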
